A study of Mus musculus with 4 samples.

Results

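The Angpt1+Muc13+ cells were 66 cells of the spleen that carried RNA of Angpt1, Muc13 and Myb together, held little or no RNA of Cd3d, Cd3e, Cd3g, Klf1 and Mpo, and stood among 11632 cells that passed the filter on 4 libraries. A cell passed with at least 500 genes, at least 1000 gene UMIs (unique molecular identifiers, each standing for 1 captured RNA molecule) and at most 10% of its UMIs from mitochondrial genes. A member had at most 1 UMI of Cd3d, Cd3e and Cd3g in sum, at least 1 UMI each of Angpt1, Muc13 and Myb, fewer than 2 UMIs of Klf1 and fewer than 5 of Mpo. The members were thus chosen by the measured UMIs of these 8 genes, whose levels are given as a description. The members were set beside 2 other classes of the same libraries, 2735 erythroid progenitors (at least 2 Klf1 UMIs, fewer than 5 Mpo UMIs) and 368 granulocyte-monocyte progenitors (at least 5 Mpo UMIs, fewer than 2 Klf1 UMIs), both with at most 1 Cd3 UMI.

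Each library came from 1 BALB/c mouse that had been irradiated and given WEHI-3B cells, a BALB/c myelomonocytic leukemia line, with bone marrow and T cells (Tc) of a C57BL/6 donor, and whose spleen was taken on day 23. In 2 mice the donor was Havcr2fl/fl;E8icre/+, which lacks Havcr2 (the gene of TIM-3, an inhibitory receptor) where the E8i element of Cd8a drives Cre, that is in CD8+ Tc. In the other 2 mice the donor was Havcr2fl/fl, with the same floxed alleles and no Cre. A pan-T cell kit that depletes other cells was used on the spleen cells, and an antibody to H-2Kb, the class I molecule of the donor, carried an oligonucleotide tag that was counted with the RNA. The study also describes the donor Tc as sorted by flow cytometry, which bears on the tag and on the shares of cells. The labels call the cells T cells, but 4600 of the 11632 cells had at most 1 Cd3 UMI, and all members lie among these. Values per library are given in the order Havcr2fl/fl;E8icre/+ mouse 1 and mouse 2, then Havcr2fl/fl mouse 1 and mouse 2.

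Blood is renewed from hematopoietic stem cells, which pass through multipotent progenitors to cells committed to the red cell, platelet, granulocyte, monocyte and lymphoid lines. The transcription factors Meis1, Erg, Gata2 and Mycn and surface molecules such as Kit and Cd34 mark early stages, while Klf1 and Gata1 drive red cell genes and Cebpa, Cebpe and Irf8 drive granulocyte and monocyte genes. In mice the spleen is itself a site of blood formation, above all after irradiation and marrow transfer. Angpt1 encodes angiopoietin 1, the ligand of the receptor TIE2 (Tek), Muc13 a transmembrane mucin, and Myb a transcription factor that progenitors need.

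The members numbered 23, 13, 4 and 26 in the 4 libraries. Their sums of gene UMIs were 511146, 249071, 129172 and 376808, from libraries with 38386626, 31449644, 17693991 and 55045903 gene UMIs in all. The library of Havcr2fl/fl mouse 1 thus held the fewest members and the fewest UMIs. The median member had 17394.5 UMIs (5720 to 81915) and 4149 genes. The medians per library were 20248, 19222, 31288 and 13600 UMIs in the members, against 28508, 22467, 20653.5 and 19692 in the erythroid and 25699, 38422, 53095 and 20379 in the granulocyte-monocyte progenitors. Of all cells kept, 17 barcodes occurred in a pair of libraries, and 0 of these belonged to a member. Scrublet, which looks for droplets that hold a pair of cells, called 1, 6, 7 and 105 cells, so few in 3 of the libraries that its calls were not used to remove cells, and 1 member of Havcr2fl/fl mouse 2 was among them.

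Among the 4600 cells with at most 1 Cd3 UMI, 483 had Angpt1, 599 had Muc13 and 253 had both, and 250 of the 253 had Myb too. Klf1 took 129 of these 250 out, Mpo took 54 and both genes took 1, which left 66. In the members Angpt1 stood at 178, 293, 325 and 210 CPM (UMIs of the gene scaled to 1000000 gene UMIs, summed over the cells of a class and library). In the erythroid progenitors it stood at 11.8, 12.6, 17.2 and 3.53 CPM, and in the granulocyte-monocyte progenitors at 44.9, 42.6, 5.32 and 30.5 CPM. Muc13 stood at 196, 233, 186 and 212 CPM in the members and Myb at 698, 855, 883 and 717 CPM. Angpt1 lies on chromosome 15 at 42424723 to 42676977, minus strand, Muc13 on chromosome 16 at 33794037 to 33819934, plus strand, and Myb on chromosome 10 at 21124935 to 21160984, minus strand (mm10). A member held a median of 3 UMIs of Angpt1 and of 3 of Muc13, and 13 members had a single Angpt1 UMI.

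The cells just outside the thresholds showed where the members lie between the classes. Of the members, 32 had no Klf1 UMI and 34 had 1. Car1, a carbonic anhydrase of early red cell progenitors, stood at 605 CPM in the members without Klf1, at 1180 CPM in those with 1 UMI, at 1814 CPM in the 52 cells that missed membership with 2 or 3 Klf1 UMIs, and at 2605 CPM in the 77 cells with 4 or more. Over the same bands Meis1 stood at 114, 79.2, 39.9 and 7.4 CPM. Car1 was higher and Meis1 lower with each step of Klf1. The Mpo side was emptier at its edge. Of the members, 59 had no Mpo UMI, 4 had 1, 3 had 2 and none had 3 or 4, and only 2 otherwise matching cells had 5 to 9. The 52 cells with 10 or more Mpo UMIs held Prtn3, a neutrophil protease, at 837 CPM and Elane, neutrophil elastase, at 330 CPM, against 32.8 and 3.45 CPM in the members without Mpo.

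Genes that the rule did not use were then set beside the label. Mef2c and Sox4, transcription factors of early progenitors, were named as markers together with the rule. Their levels are thus a description and no check of the label. In the members they stood at 225, 454, 325 and 268 CPM and at 190, 353, 317 and 143 CPM. Meis1, Kit and Gata2 were present as well. The genes that most narrowly mark the long-term stem cell were scarce. Hlf stood at 23.5, 12, 0 and 13.3 CPM and was found in 7 of 66 members (10.6%, 95% Wilson interval 5.23 to 20.3%), Mecom at 13.7, 12, 0 and 5.31 CPM in 6 members, Procr at 2.67 ± 3.79 CPM (SD, n = 4) in 2 members and Fgd5 in 1 member. Tc, at median depths of 4505.5, 5803.5, 6592 and 3013 UMIs, had an Hlf UMI in 1.51% of cells and a Mecom UMI in 0.245%. With every cell thinned to 2000 UMIs, Hlf was left in 1 of 66 members (1.52%) and in 0.593% of Tc. At this depth the members could not be told from Tc by Hlf. At full depth Hlf stood at 12.2 CPM in the members (20 UMIs) and at 0.0808 CPM in the erythroid progenitors (7 UMIs). It was higher in the members in 3 of 4 libraries, and the difference was not tested. Procr had 0 UMIs in the erythroid progenitors, while Mecom had 161 there and overlapped with the members. Flt3, the receptor of multipotent progenitors with lymphoid potential, had 3 UMIs in all, and Dntt, Il7r, Rag1, Rag2 and Ebf1, genes of early lymphocytes, had 0 UMIs, which allows each up to 2.37 CPM over the members (3 UMIs; intervals and floors cover counting error only). The cells are therefore called Angpt1+Muc13+ cells here, and not stem cells.

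**Figure D1:**
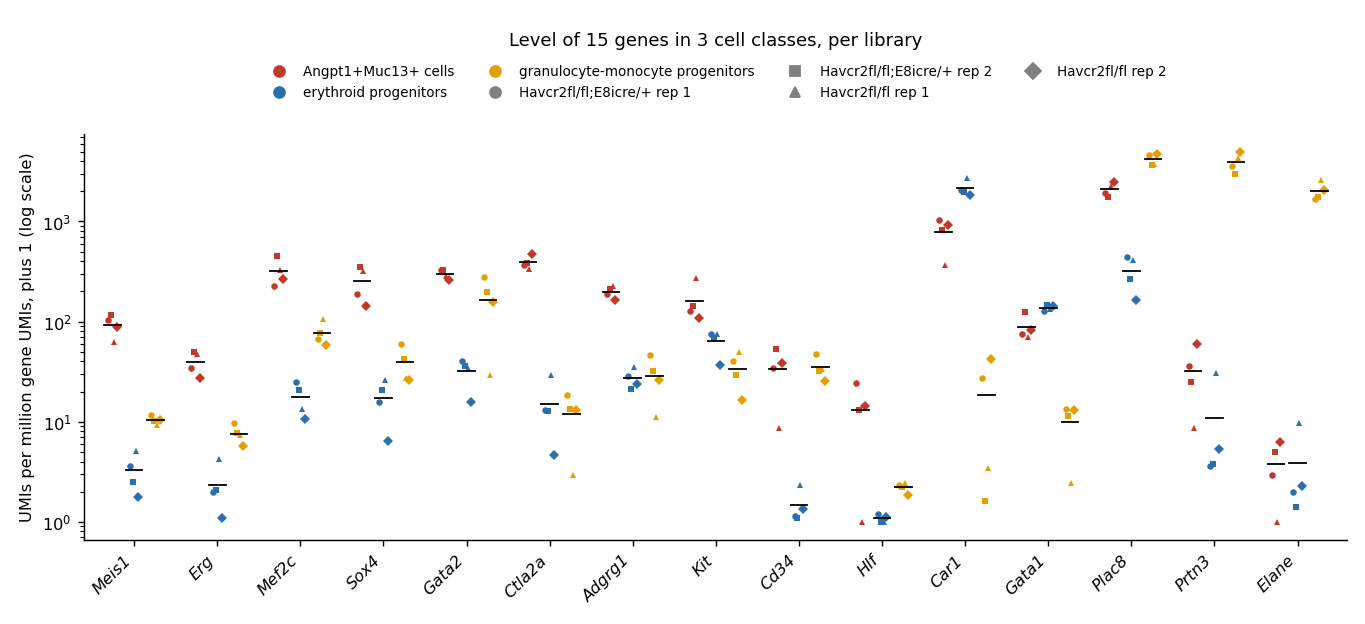
CPM plus 1 (log scale) of 15 genes in Angpt1+Muc13+ cells (red), erythroid progenitors (blue) and granulocyte-monocyte progenitors (yellow); each point is 1 library and each bar the mean of the 4 libraries. Meis1, Erg, Mef2c and Sox4 were higher in the Angpt1+Muc13+ cells than in both other classes in every library, Hlf was low, and Prtn3 and Elane were low in the Angpt1+Muc13+ cells.

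The members were then compared with each progenitor class over the 4 libraries, on UMIs summed per library and class, with edgeR's quasi-likelihood test, the library as a block and Benjamini-Hochberg adjustment over all genes tested. The 8 genes of the rule were left out of the tables tested. The classes were cut from the same RNA by Klf1 and Mpo, so genes that vary with these were bound to differ, and the counts describe how the gated classes differ. Against the erythroid progenitors 9188 genes were tested, of which 1534 were higher in the members (16.7%) and 1459 lower (15.9%), with a median log2 fold change over all genes of -0.02. Against the granulocyte-monocyte progenitors 8439 genes were tested, of which 1039 were higher (12.3%) and 1272 lower (15.1%), with a median of 0.01. Both comparisons use the same 66 members, so they are not independent of each other. Replicates here are mice, and with the library as a block the p-values rest on how the difference between classes varies over these 4 mice.

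Transcription factors of stem and progenitor cells set the members apart from both classes. Of 28 fixed genes, 22 passed the filter on low counts against the erythroid progenitors, and 16 were higher and 3 lower, with a median log2 fold change of 1.78. Against the granulocyte-monocyte progenitors 21 were tested, 17 were higher and none was lower, with a median of 1.72. The list includes Mef2c and Sox4, the markers named with the rule, which were among the higher genes in both comparisons. With cells thinned to 2000 UMIs fewer genes were tested. Then 5 of 10 were higher and 1 lower against the erythroid progenitors. Against the granulocyte-monocyte progenitors 2 of 4 were higher and none was lower. Meis1, a homeobox factor, stood at 104, 116, 61.9 and 87.6 CPM in the members, at 2.26 ± 1.47 CPM (SD, n = 4) in the erythroid and at 9.37 ± 1.05 CPM in the granulocyte-monocyte progenitors. Every member value was above every value of both classes. The log2 fold changes of Meis1 were 5.58 (SE 0.40, adjusted p = 1.45e-08 by edgeR) and 3.24 (SE 0.23, adjusted p = 3.98e-08). Meis1 lies on chromosome 11 at 18879817 to 19018985, minus strand (mm10).

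Erg, an ETS factor of stem cells and megakaryocytes, stood at 33.3, 48.2, 46.4 and 26.5 CPM, against 1.35 ± 1.35 and 6.57 ± 1.59 CPM. Mycn stood at 35.2, 32.1, 69.7 and 26.5 CPM in the members, with 2 UMIs in all granulocyte-monocyte progenitors together. Mef2c and Sox4, the markers named with the rule, were higher than in both classes, which describes the part and does not check its label. Their log2 fold changes were 4.16 (SE 0.22) and 3.94 (SE 0.20) against the erythroid progenitors. Against the granulocyte-monocyte progenitors they were 1.98 (SE 0.18) and 2.54 (SE 0.23).

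Other factors lay far from 1 class and near the other. Fli1 stood at 123, 108, 101 and 77 CPM in the members and at 2.95 ± 1.82 CPM in the erythroid progenitors (log2 fold change 5.28, SE 0.33), but at 64.7 ± 11.9 CPM in the granulocyte-monocyte progenitors (0.60, SE 0.17, adjusted p = 0.0133 by edgeR), and this second call was lost without the 7 members described below that were high in RNA of another line (0.19, adjusted p = 0.55). Gata2, which acts in stem cells, mast cells and early megakaryocyte and red cell progenitors, stood at 327, 325, 286 and 257 CPM in the members and at 30.7 ± 11 CPM in the erythroid progenitors (3.27, SE 0.19). The granulocyte-monocyte progenitors had Gata2 at 281, 195, 28.1 and 156 CPM, which overlapped the members (0.92, SE 0.29, adjusted p = 0.0272), and the direction turned when cells were thinned to 2000 UMIs (-0.21, adjusted p = 0.62). Runx1, needed to form blood stem cells, was raised against the erythroid progenitors (176 ± 57.6 CPM against 41.4 CPM) and stood at 214 CPM in the granulocyte-monocyte progenitors (log2 fold change -0.45, SE 0.21, adjusted p = 0.12 by edgeR). Tal1, Gfi1b and Mllt3 lay between the classes, lower than in the erythroid and higher than in the granulocyte-monocyte progenitors, at 92.2, 54 and 45.1 CPM in the members.

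Surface and adhesion molecules of stem cells gave a like picture against the erythroid progenitors, where 14 of 25 fixed genes were tested, 13 were higher and none was lower (median 3.94). The granulocyte-monocyte progenitors gave 15 tested genes, of which 11 were higher in the members and 2 lower (median 1.44). With cells thinned to 2000 UMIs only 1 of these genes was tested in the second comparison, and it was lower, so the count could not be set at equal depth. Ctla2a, a protease inhibitor, stood at 368, 385, 333 and 467 CPM in the members, against 13.9 ± 10.2 and 11 ± 6.5 CPM, so that the members lay far above both classes (log2 fold changes 5.09, SE 0.38, and 5.02, SE 0.25), while Tc held 200 ± 12.3 CPM. Adgrg1 (GPR56) stood at 190, 213, 225 and 162 CPM, against 26.1 and 27.9 CPM. Kit, the receptor of stem cell factor, stood at 125, 141, 271 and 109 CPM in the members, against 63.3 ± 18.4 and 32.8 ± 14.1 CPM, with no overlap.

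Slamf1 (CD150), a surface marker used to sort stem cells, stood at 23.5, 28.1, 15.5 and 29.2 CPM, against 1.69 ± 0.836 CPM in the erythroid progenitors and 3 UMIs in the granulocyte-monocyte progenitors. It was present in all 4 libraries of members and scarce in the other classes. Cd48, which stem cells lack and progenitors have, stood at 135 ± 51.4 CPM in the members and was found in 52 of them, close to the 141 ± 10.9 CPM of the granulocyte-monocyte progenitors (log2 fold change -0.19, SE 0.20, adjusted p = 0.514). Cd34 stood at 33.3, 52.2, 7.74 and 37.2 CPM in 13 members, above the erythroid progenitors (0.472 CPM) and near the granulocyte-monocyte progenitors (33.8 ± 9.35 CPM; log2 fold change -0.04, SE 0.31, adjusted p = 0.95). Cd63 and Cd93 were the 2 genes of the list that were lower than in the granulocyte-monocyte progenitors.

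**Figure D2:**
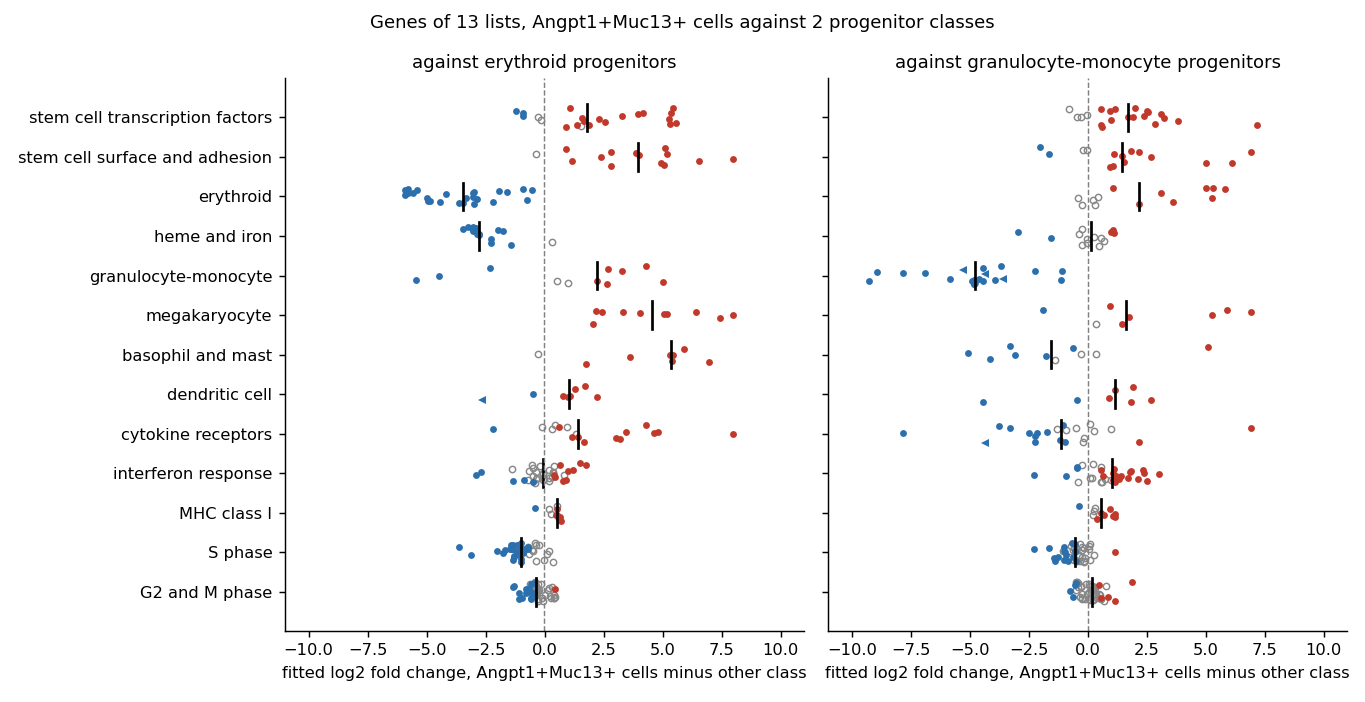
Log2 fold change of each tested gene of 13 fixed lists in Angpt1+Muc13+ cells against erythroid (left) and granulocyte-monocyte progenitors (right). Filled points passed an adjusted p of 0.05 by edgeR (red higher, blue lower), open points did not, triangles are genes with 0 UMIs in the Angpt1+Muc13+ cells drawn at the fold that 3 UMIs would give, black bars are list medians and the dashed line the median of all genes tested. Erythroid genes were lower on the left and mostly higher or unmoved on the right, and granulocyte-monocyte genes were lower on the right.

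Red cell genes placed the members between the classes. All 25 genes of the erythroid list were tested against the erythroid progenitors and all 25 were lower, with a median log2 fold change of -3.47. Against the granulocyte-monocyte progenitors 13 were tested, 8 were higher and none was lower (median 2.16), and without the 7 members high in RNA of another line 8 were higher and 4 lower, the 4 globin genes. The early genes Gata1 and Zfpm1 lay nearer to the erythroid progenitors than the median of the list. Gata1, the master factor of red cells, stood at 74.3, 124, 69.7 and 82.3 CPM, against 136 ± 8.17 CPM in the erythroid (log2 fold change -0.74, SE 0.18, adjusted p = 0.00373) and 9.03 ± 5.13 CPM in the granulocyte-monocyte progenitors (3.09, SE 0.30). Zfpm1 (FOG1), the partner of GATA1, stood at 221 ± 56.9 CPM in the members, against 292 ± 8.28 CPM (-0.52, SE 0.17, adjusted p = 0.0238 by edgeR, lost in 5 of its alternatives) and 4.95 ± 2.86 CPM (5.32, SE 0.24).

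Car1 stood at 1027, 827, 364 and 913 CPM in the members, at 2153 ± 383 CPM in the erythroid and at 17.6 ± 19.5 CPM in the granulocyte-monocyte progenitors, and lay apart from both. Several later genes of the line were near 0. Rhd, a blood group antigen, had 8 UMIs in 4 members (4.61 ± 5.44 CPM against 346 CPM), and Slc4a1 and Sptb had 12 and 7 UMIs. Globin RNA was present, with Hbb-bs (β globin) at 80.2, 5565, 54.2 and 159 CPM, of which 1 cell held most in the second library. Of the lowest genes against the erythroid progenitors, Crip2 had 0 UMIs in the members and 112 CPM in the erythroid progenitors, at least 51.7-fold lower (here and below, such bounds set 3 UMIs over the members against the CPM of the other class, both pooled over the 4 libraries). Cldn13, a claudin of the erythroid line, had 1 UMI against 268 CPM, and Paqr9 and Dmtn, a protein of the red cell skeleton, had 1 UMI each. Heme synthesis and iron genes followed, with 14 of 15 tested genes lower than in the erythroid progenitors (median -2.79), among them Tfrc, the transferrin receptor, at 59.7 ± 19.4 against 527 CPM. In the other comparison 3 of 14 were higher and 2 lower (median 0.12), beside 12.3% and 15.1% of all genes tested. Epor, the erythropoietin receptor, stood at 20.1 ± 11.5 CPM, against 100 ± 5.21 CPM.

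Granulocyte and monocyte genes were the reverse. Of 24 fixed genes, 21 were tested against the granulocyte-monocyte progenitors and all 21 were lower, with a median log2 fold change of -4.82, or -4.79 with the 3 genes at 0 UMIs (Cebpe, Csf1r and Igsf6) put at their bound. Elane had 4 UMIs in 3 members, at 1.96, 4.01, 0 and 5.31 CPM, against 2018 ± 404 CPM. Chil3, Hp, Ly86, Klf4 and Ctsh, genes of monocytes and macrophages or of granulocytes, had 0 UMIs in all 66 members and were at least 158-, 134-, 87.7-, 64.2- and 57.8-fold lower. Prtn3 was lower by a log2 fold change of -6.88 (SE 0.22), but stood at 35.2, 24.1, 7.74 and 58.4 CPM in 22 members. Against the erythroid progenitors 11 genes of the list were tested, 6 were higher and 3 lower (median 2.20).

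Plac8, an early gene of multipotent and myeloid progenitors, was the exception in level, with 1904, 1742, 2268 and 2487 CPM and UMIs in 64 of 66 members. It lay between the erythroid (320 ± 130 CPM, log2 fold change 2.67, SE 0.22) and the granulocyte-monocyte progenitors (4201 ± 585 CPM, -1.10, SE 0.10) with no overlap on either side. Nkg7, a gene of cytotoxic granules that also sits in the list of Tc genes, stood at 364 ± 59.2 CPM in 63 members, against 18.1 CPM in the erythroid and 325 ± 86 CPM in the granulocyte-monocyte progenitors. Trac, Trbc1, Trbc2, Cd2, Cd5, Cd6, Cd4 and Cd8a, which define Tc, had 0 to 3 UMIs each in the members. The Tc list summed to 407, 406, 418 and 560 CPM in the members, of which Nkg7 gave 78.7%, and to 20372 ± 1831 CPM in Tc. Of its 17 genes, 3 were tested against the erythroid progenitors, and Nkg7 and Lat were higher, and 4 against the granulocyte-monocyte progenitors, of which Lat was higher.

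Platelet line genes were raised against the erythroid progenitors in all 10 of the 20 fixed genes that were tested (median 4.54). F2r, the thrombin receptor, stood at 223, 241, 194 and 117 CPM, against 19.8 ± 10 and 4.34 ± 4.45 CPM, and was present in 52 members, so that all 4 libraries lay above both classes (log2 fold changes 3.31, SE 0.22, and 5.28, SE 0.30). Gp5, a subunit of the von Willebrand factor receptor, stood at 40 ± 16.1 CPM in 26 members. Pf4, a chemokine of platelet granules, came from few cells, with 1217 UMIs in 6 members, of which 738, 308 and 165 lay in 3 cells. Itga2b (CD41) stood at 129, 128, 139 and 21.2 CPM in 25 members. Without the 7 members described below, 7 genes were tested and 6 were higher. Against the granulocyte-monocyte progenitors 8 were tested, 6 were higher and 1 lower, and without those 7 members 3 were higher and 2 lower.

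Basophil and mast cell genes were raised against the erythroid progenitors in 7 of 8 genes tested out of 15 (median 5.34), and in 6 of 7 without those 7 members. Fcer1a, a chain of the IgE receptor, stood at 93.9, 8.03, 77.4 and 122 CPM in 8 members, against 0.535 ± 0.389 CPM in the erythroid progenitors, and 42 and 39 of its 106 UMIs lay in 2 cells. Cpa3, a mast cell carboxypeptidase, stood at 153, 92.3, 15.5 and 84.9 CPM in 20 members. Ms4a2, the β chain of the IgE receptor, stood at 99.8, 72.3, 38.7 and 21.2 CPM in 10 members. Gzmb (granzyme B) stood at 196 ± 200 CPM, with 110 of 178 UMIs in 1 cell. Set beside the granulocyte-monocyte progenitors, 10 genes of the list were tested, 1 was higher (Gzmb) and 6 lower (median -1.58). That class itself held Mcpt8, a basophil protease, at 4265, 4140, 1353 and 3439 CPM and Prss34 at 4075 CPM, so it includes cells with basophil RNA.

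Receptors for cytokines and growth factors were higher than in the erythroid progenitors in 11 of 17 tested genes and lower in 1, Epor (median 1.42), and lower than in the granulocyte-monocyte progenitors in 12 of 22 and higher in 2, among them Kit (median -1.12). In the 26 members without Klf1 and Mpo UMIs, 4 of 11 were higher and 1 lower against the erythroid progenitors. Csf2rb, the common β chain for IL-3, IL-5 and GM-CSF, stood at 81 ± 38.9 CPM in the members, against 4.04 ± 4.49 and 138 ± 28.6 CPM. Il3ra, the α chain for IL-3, stood at 23.3 ± 6.89 CPM, against 2.11 and 49 CPM, between the classes and apart from both. Csf1r, the receptor of M-CSF, had 0 UMIs. Tek, the receptor of angiopoietin 1, had 5 UMIs in 5 members and Tie1 4 UMIs in 4. Both were too low to be tested, and of the 7 genes of angiopoietins and their receptors only Angptl4 was (not past the threshold in either comparison).

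The MHC class II genes of the fixed dendritic cell list were higher than in both classes. H2-Aa stood at 248, 229, 201 and 342 CPM in the members, against 97.6 ± 25.2 and 71.4 ± 46.2 CPM (log2 fold changes 1.29, SE 0.17, and 1.90, SE 0.33). Cd74, the invariant chain, stood at 266, 309, 209 and 279 CPM, against 74.7 ± 17.3 and 130 ± 87.6 CPM, and overlapped only the granulocyte-monocyte progenitors. These 2 genes, H2-Ab1, H2-Eb1 and Tcf4 were the 5 genes of the dendritic cell list of 15 that were higher in both comparisons, out of 8 and 7 tested, with Irf8 the only other one against the erythroid progenitors. In each comparison 2 genes of the list were lower, and against the erythroid progenitors these were Bst2 and Zbtb46. Siglech, Ccr9, Xcr1, Clec9a, Cd209a, Itgax and Zbtb46, which define dendritic cells, had 0 UMIs. The list summed to 1426, 1217, 1123 and 1547 CPM, with H2-Ab1 its most abundant gene. Of 11 genes of MHC class I presentation, 7 were higher and 1 lower in each comparison (medians 0.53 and 0.55), but only 3 were higher in each in the 26 members without Klf1 and Mpo UMIs. H2-K1, a heavy chain of class I, stood at 1710 ± 193 CPM against 979 and 1236 CPM.

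Of the interferon response genes, 9 of 37 tested were higher and 5 lower against the erythroid progenitors (median -0.06), beside 16.7% and 15.9% of all genes tested, but 5 were higher and 13 lower in the 26 members without Klf1 and Mpo UMIs. With cells thinned to 2000 UMIs, 9 of 21 were higher and 1 lower. Against the granulocyte-monocyte progenitors 18 of 32 were higher and 4 lower (median 1.02), beside 12.3% and 15.1% of all genes tested, and 10 of 29 were higher and 5 lower in those 26 members. Iigp1, a GTPase induced by interferon-γ, stood at 520, 574, 294 and 459 CPM in the members, against 382 ± 87.6 CPM in the erythroid (log2 fold change 0.17, SE 0.17, adjusted p = 0.494) and 85.8 ± 35.3 CPM in the granulocyte-monocyte progenitors (2.38, SE 0.15). Isg15, a target of type I interferon, stood at 60.6, 44.2, 7.74 and 18.6 CPM, far below the 292 ± 117 CPM of the erythroid progenitors (-2.92, SE 0.29). Lgals9, which encodes the TIM-3 ligand galectin-9, stood at 618, 281, 379 and 456 CPM, below the erythroid (829 ± 171 CPM) and above the granulocyte-monocyte progenitors (123 ± 42.2 CPM). Havcr2 itself had 3 UMIs in 2 members, both of Havcr2fl/fl;E8icre/+ mice, at 1.96, 8.03, 0 and 0 CPM, while Tc stood at 51.6, 14.3, 36.1 and 73.2 CPM.

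Many genes of DNA replication were lower than in the erythroid progenitors. Of 41 S phase genes, 29 were lower and none higher against the erythroid progenitors (median -1.02), and 16 were lower and 1 higher against the granulocyte-monocyte progenitors (median -0.54). With cells thinned to 2000 UMIs, 13 of 34 were lower against the erythroid but only 1 of 10 against the granulocyte-monocyte progenitors. Rrm2, a subunit of ribonucleotide reductase, stood at 43, 12, 7.74 and 42.5 CPM in the members, against 263 ± 55.7 and 145 ± 20 CPM. The members' values were below all values of both classes. Of 50 genes of G2 and M phase, 15 were lower and 1 higher against the erythroid progenitors (median -0.38). Of all genes tested there, 15.9% were lower and 16.7% higher. Against the granulocyte-monocyte progenitors 4 were lower and 5 higher (median 0.19), beside 15.1% and 12.3% of all genes tested. Mki67, present in cycling cells, stood at 767, 466, 960 and 690 CPM, below the erythroid progenitors (1102 ± 65.4 CPM) and overlapping the granulocyte-monocyte progenitors (474 ± 86.7 CPM). A UMI of Top2a or Mki67 was found in 55 of 66 members.

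Of 22 genes that hold back the cell cycle or mark early response, 9 of 15 tested were higher and 2 lower against the erythroid progenitors (median 1.07). Against the granulocyte-monocyte progenitors 5 of 16 were higher and 4 lower (median 0.03). Of all genes tested, 16.7% were higher and 15.9% lower in the first comparison and 12.3% and 15.1% in the second. Cdkn1b (p27), an inhibitor of cyclin-dependent kinases, stood at 64.6, 145, 170 and 79.6 CPM, against 47.6 ± 13.1 and 42.5 ± 5.31 CPM (log2 fold changes 1.07, SE 0.17, and 1.18, SE 0.21), but with cells thinned to 2000 UMIs the first was 0.01. Txnip, an inhibitor of thioredoxin and of glucose uptake, stood at 254, 426, 170 and 236 CPM, against 64.6 ± 11.9 and 66.8 ± 18.2 CPM. Both genes were above both classes in all 4 libraries. Of 17 lymphoid primed genes, 8 were tested against the erythroid progenitors. Of these 1 was higher and 2 lower, near the shares over all genes just given. Against the granulocyte-monocyte progenitors 9 were tested, of which Bcl11a and Tcf3 were higher and 4 lower. Bcl11a, a factor of early lymphocytes and of globin control, stood at 251 ± 2.4 CPM in the members, 228 CPM in the erythroid and 38.6 CPM in the granulocyte-monocyte progenitors, and the call of Tcf3 was lost in 9 of its alternatives. The B cell genes Cd79a and Pax5 had 0 UMIs, and Igkc, an antibody light chain, stood at 43, 68.3, 38.7 and 133 CPM in the members. Igkc was at 31.7, 865, 38.9 and 1635 CPM in the erythroid and at 34.1, 3564, 16.9 and 3693 CPM in the granulocyte-monocyte progenitors, so that it passed the test as lower in the members but lay above them in both classes only in the second mouse of each genotype.

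Outside the lists, the genes with the largest rise against the granulocyte-monocyte progenitors were mostly ones that the erythroid progenitors also held. Slc14a1, a urea transporter of red cells, stood at 84.1, 169, 69.7 and 77 CPM in the members, at 62.9 ± 6.71 CPM in the erythroid and at 0.72 ± 0.433 CPM in the granulocyte-monocyte progenitors. Samd14 and Mfsd2b, the latter an exporter of sphingosine 1-phosphate in red cells and platelets, stood at 93.4 and 86.1 CPM in the members and at 96.6 and 67.3 CPM in the erythroid progenitors. Trib2, a pseudokinase, was higher than in both, at 47, 88.3, 15.5 and 50.4 CPM against 13.9 ± 5.51 CPM in the erythroid progenitors and 1 UMI in the granulocyte-monocyte progenitors. Among the largest rises against the erythroid progenitors, Tuba8, a tubulin, stood at 54.7 ± 17.9 CPM against 0.754 CPM (and 14.2 CPM in the granulocyte-monocyte progenitors), and Tespa1 and Coro2a at 55.1 and 58.7 CPM against 1.46 and 2.24 CPM.

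Single members differed widely from each other. Meis1 was found in 38 members, with at most 14 UMIs in 1 cell. Car1 ranged from 0 UMIs in 14 members to 153 in 1, and 30 members (10, 7, 2 and 11) had 10 or more. Gata1 and Gata2 were found together in 45 members and Car1 and Prtn3 in 15. Cd34 was found in 13 members, of which 6 had 3 or more UMIs. A UMI of Hlf or Mecom was found in 10 members, and the one with the most Hlf (8 UMIs) also held 3 of Mecom, 8 of Cd34 and none of Car1.

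A few members held RNA of another line in bulk. Of these, 3 had 165 to 738 Pf4 UMIs, namely 1 cell of Havcr2fl/fl;E8icre/+ mouse 1 with 81915 UMIs, the most of any member, and 2 cells of Havcr2fl/fl;E8icre/+ mouse 2. These 3 cells had 9, 0 and 7 Meis1 UMIs and 1, 0 and 0 Car1 UMIs. Another 2 members, of Havcr2fl/fl;E8icre/+ mouse 1 and Havcr2fl/fl mouse 2, held 211 and 258 Mcpt8 UMIs, with 60 and 25 of Cpa3, 63 and 73 of Ctsg, and no Car1 or Meis1. In Havcr2fl/fl;E8icre/+ mouse 2 a single member held 1369 of the 1494 Hbb-bs (β globin) UMIs, and in Havcr2fl/fl mouse 2 a single member, the one that Scrublet called, held 987 of the 996 Ighm UMIs. These are the 7 members that were left out where stated. They were found after the data were seen, and whether they are pairs of cells in 1 droplet was not tested. Without them 2831 genes differed from the erythroid and 2413 from the granulocyte-monocyte progenitors.

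**Figure D3:**
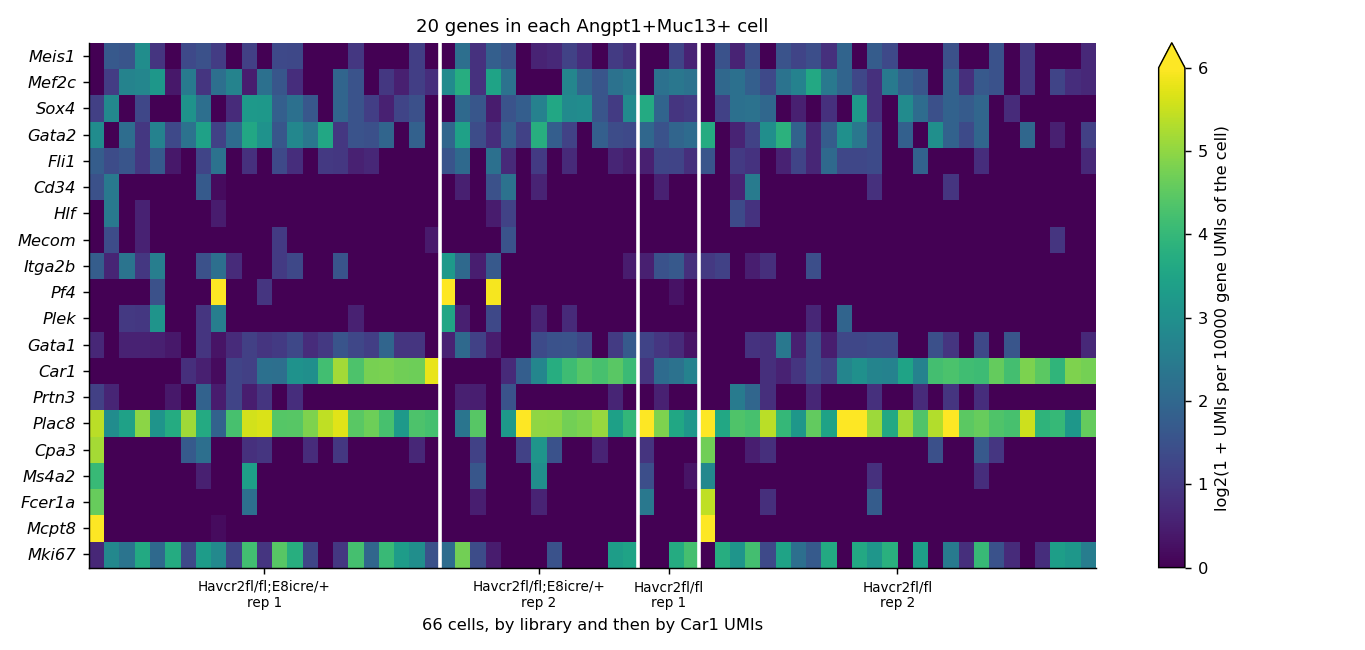
Log2(1 + UMIs per 10000 gene UMIs of the cell) of 20 genes (rows) in each of the 66 Angpt1+Muc13+ cells (columns), ordered within each library by Car1 UMIs; white lines part the libraries, and the scale stops at 6. Meis1 was found in 38 cells and Car1 in 52, and Pf4 was bright in 3 cells and Mcpt8 in 2.

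The donor tag was measured apart from the RNA that chose the members. The median tag UMIs per member were 6051, 5449, 9837.5 and 4348, against 1597.5, 1971.5, 2445 and 1259 in Tc (at least 3 Cd3 UMIs). The members were higher in 4 of 4 libraries, by a mean log2 difference of 1.80 ± 0.238 (SD, n = 4), or 3.47-fold (exact sign-flip permutation test, two-sided p = 0.13, the smallest that 4 pairs allow). The least tagged member had 1584 tag UMIs. The members also had more RNA than Tc, and per 1000 gene UMIs the direction turned. The medians were then 306, 293, 294 and 299 in the members and 332, 321, 342 and 379 in Tc (mean log2 difference -0.20, higher in 0 of 4 libraries, exact permutation p = 0.13). The erythroid progenitors had 183, 148, 157 and 161 tag UMIs per 1000 gene UMIs and the granulocyte-monocyte progenitors 186, 164, 155 and 160, so that the members were 1.84-fold and 1.80-fold higher, in 4 of 4 libraries each (exact permutation p = 0.13 for both). Per cell, the median tag was above that of the erythroid progenitors by a mean log2 difference of 0.57 (higher in 4 of 4 libraries, exact permutation p = 0.13) and by 0.23 above that of the granulocyte-monocyte progenitors (higher in 3 of 4, with a difference of -0.22 in Havcr2fl/fl;E8icre/+ mouse 2, exact permutation p = 0.25). Il3 and Hoxb8, which WEHI-3B cells express, had 0 UMIs in the members and in all 3 other classes.

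**Figure D4:**
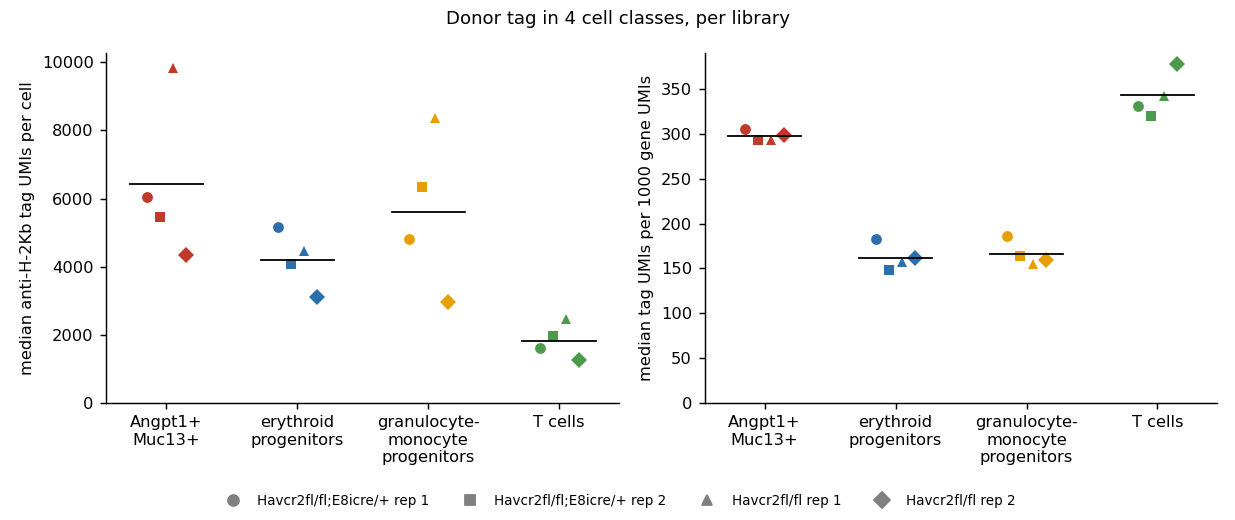
Median anti-H-2Kb tag UMIs per cell (left) and per 1000 gene UMIs (right) in 4 cell classes; each point is 1 library and each bar the mean of the 4. Per cell the Angpt1+Muc13+ cells lay above Tc in each library, and per 1000 gene UMIs they lay between 293 and 306, below Tc and above both progenitor classes.

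The study compared donors with and without TIM-3 in CD8+ Tc, and the members were compared by that genotype too. They made up 2.28, 1.80, 1.06 and 1.04% of the cells with at most 1 Cd3 UMI, with 95% Wilson intervals of 1.52 to 3.39, 1.06 to 3.06, 0.412 to 2.69 and 0.713 to 1.52%. The Havcr2fl/fl;E8icre/+ libraries were both higher, by 0.989 percentage points on average, with an exact permutation p of 0.33 (two-sided), the smallest that 2 against 2 allows. The share depends on what it is a share of. The erythroid progenitors took 50.2, 45.9, 37 and 70.5% of the same cells. Of all cells kept, the members made up 0.670, 0.510, 0.330 and 0.586%, and the genotypes overlapped (difference 0.132 points, exact permutation p = 0.667). With cells thinned to 5000 UMIs before the rule was applied, the shares were 1.82, 1.94, 1.82 and 0.575% (difference 0.681 points, exact permutation p = 0.667). These were shares of 825, 568, 330 and 2088 cells, fewer than the 1010, 721, 378 and 2491 cells without thinning. The genotypes stayed apart with the stricter cell filter and with Scrublet calls removed (difference 1.00 points each). They also stayed apart for members without Klf1 and Mpo UMIs (0.499 points) and with at least 2 UMIs each of Angpt1 and Muc13 (0.420 points). A model of the cell numbers with edgeR, which is not an exact test, gave a log2 ratio of 0.98 (p = 0.0072). It was fitted to the members and the remaining cells only and estimated its spread over both. Its p-value therefore does not measure the spread of the share between mice. The kit that depletes cells other than Tc and a sort for donor Tc bear on these shares as well, and their part in them was not tested.

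**Figure D5:**
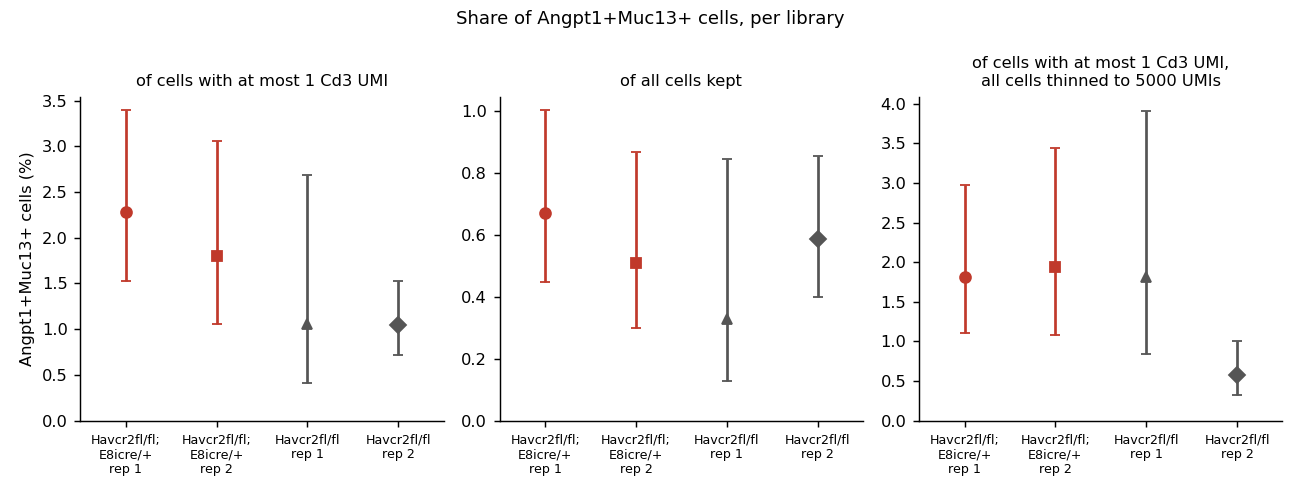
Share of Angpt1+Muc13+ cells in each library (points) with 95% Wilson intervals, in percent of cells with at most 1 Cd3 UMI, of all cells kept, and of cells with at most 1 Cd3 UMI after thinning to 5000 UMIs, which left fewer such cells. The genotypes are apart in the first panel and overlap in the others.

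Few genes of the members differed by genotype. Of 4708 genes tested with edgeR, 2 passed (0.0425%), Pf4 and Plek, and 134 had an unadjusted p under 0.05. The call of Plek was lost with the replicate number as a block. The count changed with the settings and with the libraries used, as given in the last section. Pf4 stood at 1454 and 1899 CPM in the Havcr2fl/fl;E8icre/+ libraries and at 7.74 and 0 CPM in the Havcr2fl/fl libraries (1 UMI; log2 fold change 9.49, SE 0.69, adjusted p = 4.03e-05). Plek, a protein of platelets and leukocytes, stood at 125 and 116 against 0 and 7.96 CPM (3 UMIs; 4.33, SE 0.58, adjusted p = 0.0177). Few cells held most of both. The 3 cells with 165 or more Pf4 UMIs held nearly all of the Pf4, and 40, 22 and 4 of the 96 Plek UMIs. Another 17 Plek UMIs lay in a further cell of Havcr2fl/fl;E8icre/+ mouse 1 with 4 Pf4 UMIs, which is not among the 7 members above. Without those 7 neither gene passed the filter on low counts, so that neither was tested there, and 1 gene was called, Hist1h2ap, a histone gene (log2 fold change 2.38, SE 0.39, adjusted p = 0.0361).

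Hist1h2ap stood at 2187, 3638, 604 and 804 CPM in the members. In the erythroid progenitors it stood at 2195, 9245, 6324 and 1291 CPM, where the genotypes overlapped. The cause of its difference in the members was not tested. The other lists held no gene past the threshold, and Angpt1, Muc13, Myb, Klf1 and Mpo overlapped between genotypes. Many genes of the lists were apart between genotypes without passing the threshold. Among them were Gata2 (326 ± 1.07 against 272 CPM, n = 2 each) and Meis1 (110 against 74.8 CPM), and, lower in Havcr2fl/fl;E8icre/+, Cd48 (102 against 169 CPM). Libraries that are apart, 2 against 2, have an exact permutation p of 0.33. The share of all genes that were apart was not counted.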

How the data were processed

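Per the labels and file headers, the authors made the files with Cell Ranger 6.1.2 (mm10): deposited whole-number UMI counts per gene and barcode and for 1 antibody tag, not normalized; the annotation is not given in the sources used here. All 15784 barcodes (142576164 gene UMIs) were read with Python 3.11.15 and scanpy 1.11.5. Cells were filtered and classed as stated in the report, and counts were summed per library and class. The members and gene lists were chosen with earlier results of these data known. Genes passing filterByExpr were tested in R 4.3.3 with edgeR 4.0.16 (TMM, quasi-likelihood, Benjamini-Hochberg, threshold 0.05), with the library as a block between classes and no block between genotypes. DESeq2 1.42.0 was an alternative. Tests were checked on simulated data. Any gene of the fixed lists may be named. Outside them, the text names genes among the 10 largest log2 fold changes per direction with at least 50 CPM (20 for genotypes) in the higher class and the same direction in every library, leaving out unnamed gene models, mitochondrial genes and receptor variable segments, and Hist1h2ap, chosen after its values were seen. Positions are from GENCODE M21 (GRCm38). Doublets were kept. The exact permutation tests were two-sided. Thinning to 2000 UMIs left out 0 members and 362 Tc. Some genes are not reported here.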

Additional observations from a re-analysis of the deposited data

Results flagged for a closer look

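In both of the following, each library of one genotype lay on one side of 0 and each library of the other genotype on the other side, and the difference was not tested. The summed lymphoid primed genes of the Angpt1+Muc13+ cells against the erythroid progenitors had log2 ratios of -0.27 and -1.31 in the Havcr2fl/fl;E8icre/+ libraries and of 0.43 and 2.40 in the Havcr2fl/fl libraries, a difference of -2.21. Ighm gave 59.6% of the members' UMIs of this list, nearly all from 1 cell of Havcr2fl/fl mouse 2. The summed Tc genes against the granulocyte-monocyte progenitors had log2 ratios of -0.28 and -0.05 against 0.86 and 0.54, a difference of -0.858, and Nkg7 gave 78.7% of the members' UMIs of this list.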

How the results depend on the processing

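The tag of the Angpt1+Muc13+ cells against Tc turned from a log2 difference of 1.80 to -0.20 per 1000 gene UMIs. Thinned to 2000 UMIs per cell, 512 genes differed from the erythroid and 301 from the granulocyte-monocyte progenitors, with 2470 and 1005 genes tested, and Bst2 (0.10) and Tapbp (0.33) against the erythroid and Gata2 (-0.21) against the granulocyte-monocyte progenitors changed direction, none past the threshold there. The 26 members without Klf1 and Mpo UMIs gave 1399 genes against the granulocyte-monocyte progenitors. For the share of members by genotype, edgeR on cell numbers, which is not an exact test, gave a log2 ratio of 0.98 (p = 0.0072), and of 0.87 (p = 0.0307) with the replicate block. The number of genes that differed by genotype was 5 with the stricter cell filter, 9 in members without Klf1 and Mpo UMIs, 4 with DESeq2 size factors and with DESeq2, 18 with no filter on low counts and 1 without the 7 members. Leaving out 1 library at a time gave 2119 to 3558, 1642 to 2423 and 5 to 34 genes for the 3 comparisons, the last being 18 and 7 without Havcr2fl/fl;E8icre/+ mouse 1 and 2 and 34 and 5 without Havcr2fl/fl mouse 1 and 2, where the lone library is assumed to vary like the others. It gave 0.752 to 1.23 points for the share and 1.73 to 1.91 for the tag. With the replicate number as a block, 1 gene (Pf4) differed by genotype, but deviations of same-numbered libraries correlated at -0.13 over 4708 genes, so no pairing was taken from the numbers. Igkc nevertheless followed the number in the progenitor classes (above). The crossed pairing, added after the data were seen, gave 10 genes. Of 3014, 2527 and 28 values of named genes under the alternatives in the 3 comparisons, 2809, 2315 and 27 kept their direction and side of the threshold, and 203, 211 and 1 kept the direction only. Depth and cell number limit all of this: 66 cells in 4 mice, 4 of them from 1 mouse. Of other list counts, the 26 members without Klf1 and Mpo UMIs gave 4 of 11 cytokine receptors higher against the erythroid progenitors, and thinning gave 3 of 6 quiescence genes higher and 2 lower. The causes of these changes were not tested.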
